A study of Homo sapiens with 4 samples.

Results

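Keratins and keratin-associated proteins (KRTAPs) were examined in ES-2 cells after knockdown of MAML2 and of the YAP1-MAML2 fusion (YM). The members were taken by symbol, as KRT followed by a number or KRTAP followed by a pair of numbers, which gave 33 keratin genes and 16 KRTAP genes, 49 of the 19626 genes in the deposited tables. RefSeq holds 149 symbols of this form, and the other 100 were not analysed here. No gene in the tables was at 0 in all 4 libraries, so a listed member had at least a trace of reads.

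ES-2 is an established human ovarian clear cell carcinoma line that carries the YM fusion endogenously. A lentivirus based on pLKO.1 brought in either a nontargeting shRNA (shCtl, n = 2 biological replicates) or an shRNA against MAML2 (shM2-3, labelled shMAML2, n = 2). According to the labels, infections lasted 8 h on each of 2 days and RNA was isolated 96 h after the first, whereas the study's methods describe another infection schedule and a shorter time to RNA isolation. shM2-3 targets MAML2 sequence that the fusion shares, so both groups are transduced cells of a single line and differ in a single shRNA.

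Keratins are the intermediate filament proteins of epithelial cells. A filament is built from pairs of a type I (acidic) and a type II (basic) keratin, and the pair in use marks the epithelium, with KRT8 and KRT18 in simple epithelia and KRT7 in many ductal and Müllerian epithelia. Hair keratins such as KRT81, KRT83, KRT86 and KRT34 form the filaments of the hair shaft. KRTAPs are small cysteine-rich proteins that crosslink those hair filaments, and they are not typical products of the ovary. Human type I genes lie in a cluster on chromosome 17, which also holds KRTAP genes, and type II genes together with KRT18 lie in a cluster on chromosome 12. Here 29 members lay on chromosome 17, 15 on chromosome 12 and 5, all of the KRTAP5 subfamily, on chromosome 11.

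The libraries held between 20051083 and 23978660 estimated counts, and members took between 20482 and 48281 of them per library. MAML2, the targeted gene, had 1436 and 1402 counts in the control libraries and 634 and 553 in shM2-3. Its RPKM (counts per length of transcript and per depth of library) was 8.44 ± 0.243 in shCtl and 3.05 ± 0.0776 after knockdown (mean ± SD of 2 libraries each), a log2 fold change of -1.40 (SE 0.0688). Reads of the fusion's MAML2 part are included in these counts and are not told apart from MAML2 itself.

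The edgeR test covered the 12157 genes whose RPKM exceeded 1 in any library. To be called, a gene needed an adjusted p (Benjamini-Hochberg) no higher than 0.05 and at least a 2-fold difference, and "fell" and "rose" are used below for called genes. Of the 49 members, 13 were tested (10 keratins and 3 KRTAPs). KRT81, KRT86, KRT7, KRT8, KRTAP2-3, KRTAP2-4 and KRTAP4-9 fell in shM2-3 cells, 7 of the 13, where 8.93% of all genes tested were called lower. KRT3 and KRT79 rose, 2 of the 13, where 9.24% of all genes tested were called higher. The remaining 4 (KRT18, KRT80, KRT10 and KRT15) met the limit on adjusted p and stayed under the fold limit. Since 72.7% of all genes tested met the limit on adjusted p, this limit alone separated few genes from the rest. The RPKM values of the groups did not overlap for any of the 13, as was the case for 86.0% of all genes tested.

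The filter bears on these counts. The 3 KRTAPs passed it only through shCtl, and KRT3 and KRT79 only through shM2-3, so that a difference in that direction was built into their selection. The other 8 members passed it in both groups, and 4 of them fell. The share called lower among all genes that passed in both groups was not computed, so this count is a description only. The median log2 fold change of the 13 was -1.22, beside -0.0037 for all genes tested, and the 5 members that passed through a single group are part of that median.

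**Figure D1:**
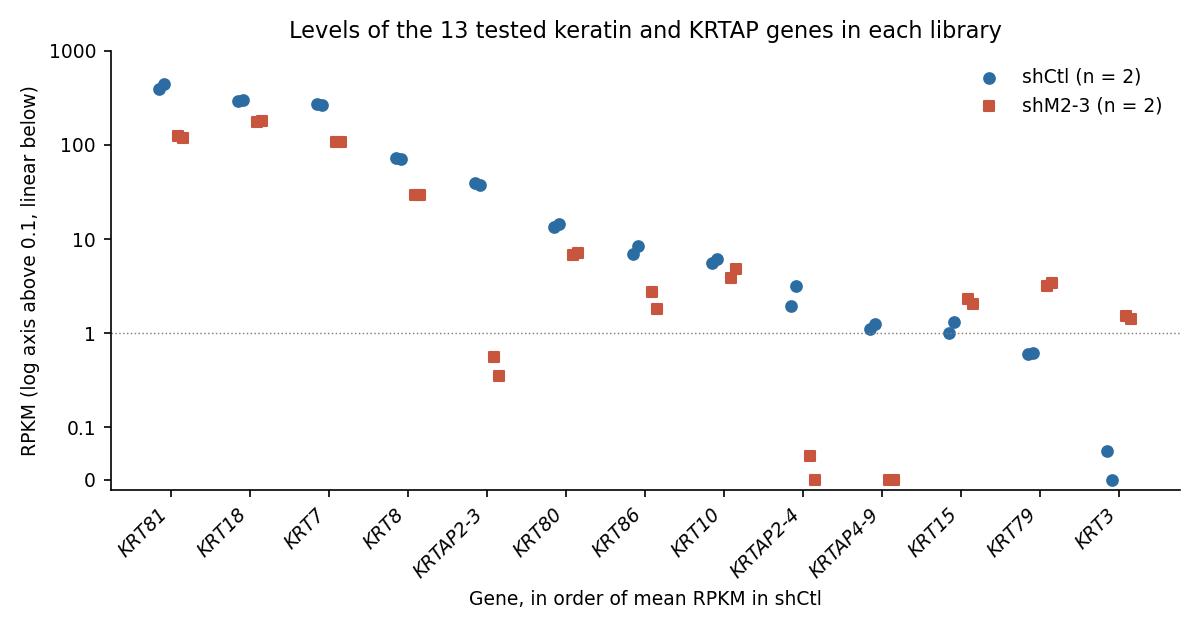
RPKM of the 13 tested members in each of the 4 libraries, with genes ordered by their mean in shCtl, circles for shCtl and squares for shM2-3. The axis is logarithmic above 0.1, and the dotted line marks the RPKM of 1 used as the filter. The 4 most abundant keratins stay above 29 in every library, whereas the 3 KRTAPs drop below 1 and KRT3 and KRT79 start below 1.

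The simple epithelial keratins KRT8, KRT7 and KRT18 were abundant in control cells, and all were lower after knockdown, by different amounts. KRT7 (chromosome 12 of hg38, 52233243 to 52255853, plus strand) had an RPKM of 269 and 267 in shCtl and of 108 and 107 in shM2-3, so that 40.0% of its control level was left. It fell by 1.26 on the log2 scale (SE 0.0395, adjusted p = 4.96e-12).

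KRT8, the type II partner in simple epithelia (chromosome 12, 52897191 to 52949860, minus strand), had an RPKM of 73.3 and 70.5 in shCtl and of 29.1 and 29.7 in shM2-3. The groups lay far apart relative to the spread within each, and KRT8 fell by 1.22 on the log2 scale (SE 0.0473, adjusted p = 4.20e-11). KRT18, its type I partner and next neighbour (52948855 to 52952906, plus strand), had an RPKM of 294 and 299 in shCtl and of 176 and 179 in shM2-3. KRT18 kept 59.7% of its control level. Its log2 fold change of -0.68 (SE 0.0392, adjusted p = 2.93e-09) did not reach the fold limit.

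Although KRT8 and KRT18 form one filament pair, their transcripts did not keep one ratio. KRT8 RPKM divided by KRT18 RPKM was 0.249 and 0.236 in shCtl and 0.166 in each shM2-3 library. KRT8 divided by KRT7 was 0.273 and 0.264 in shCtl and 0.270 and 0.278 in shM2-3, so that these 2 type II genes kept their ratio within the spread between libraries. These ratios are descriptions without a test. The annotated exons of KRT8 and KRT18 share 525 bases on opposite strands, and reads from these libraries, which carry no strand, cannot be told apart there. Both genes also have near copies among pseudogenes, KRT8P3 with 97.1% identity to KRT8 and KRT18P11 with 95.2% identity to KRT18, and the authors removed ambiguous reads.

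KRT7 shares 282 exon bases with its antisense gene KRT7-AS. KRT7-AS, named here after its values were seen, had 116 and 129 counts in the control libraries and 129 and 108 in shM2-3, far below the counts of KRT7 (4502 to 10332).

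KRT81, a type II hair keratin, was the most abundant keratin of control cells. Its RPKM was 391 and 446 in shCtl and 123 and 117 in shM2-3, and its rank by RPKM among all genes went from 106 and 98 to 289 and 320. It fell by 1.73 on the log2 scale (SE 0.0541, adjusted p = 4.49e-12), leaving 28.7% of the control RPKM. The gene lies on chromosome 12 from 52285913 to 52291534 on the minus strand.

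KRT86, another type II hair keratin, moved in parallel at a level of about 2% of KRT81. It had an RPKM of 6.98 and 8.34 in shCtl and of 2.72 and 1.80 in shM2-3. The log2 fold change of KRT86 was -1.69 (SE 0.171, adjusted p = 9.85e-07). KRT86 RPKM was 1.79% and 1.87% of KRT81 RPKM in shCtl and 2.21% and 1.54% in shM2-3. The KRT86 gene body (52274645 to 52309163, plus strand) spans KRT81, and the transcripts are 96.6% identical over 1325 aligned bases, so KRT86 counts are uncertain. KRT83, the third hair keratin of this group, had at most 7 counts in a library. Summed into one feature, KRT81, KRT83 and KRT86 had a log2 fold change of -1.73 (SE 0.0546).

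KRT80, a type II keratin of many epithelia (chromosome 12, 52168996 to 52192014, minus strand), had an RPKM of 13.3 and 14.5 in shCtl and of 6.76 and 7.12 in shM2-3. Its log2 fold change of -0.94 (SE 0.0717, adjusted p = 5.40e-08) lay just under the fold limit.

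These changes altered the makeup of the keratin transcripts. The summed RPKM of all keratins was 1056 and 1114 in shCtl and 456 and 454 in shM2-3, and KRT81, KRT18, KRT7 and KRT8 made up between 95.3% and 97.3% of it. KRT81 took 37.0% and 40.0% of the sum in shCtl and 27.0% and 25.9% in shM2-3. KRT18 took 27.9% and 26.8% in shCtl and 38.5% and 39.4% in shM2-3, and became the most abundant keratin. The KRT7 share stayed between 23.5% and 25.5% in the 4 libraries. KRT81, KRT18 and KRT8 align to a near copy over 68.7%, 91.3% and 81.2% of their transcripts, and ambiguous reads were removed. How many reads each gene lost in this way is not known, so shares and ranks between keratins are approximate.

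Summed over all members of a type, type II keratins had an RPKM of 754 and 807 in shCtl and of 274 and 268 in shM2-3, and type I keratins of 302 and 307 against 182 and 186. The ratio of type II to type I RPKM was 2.50 and 2.63 in shCtl and 1.5 and 1.44 in shM2-3. The libraries of each group lay close together in this ratio and the groups did not overlap. No test was made on the sums, and RNA levels do not give the amounts of protein.

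**Figure D2:**
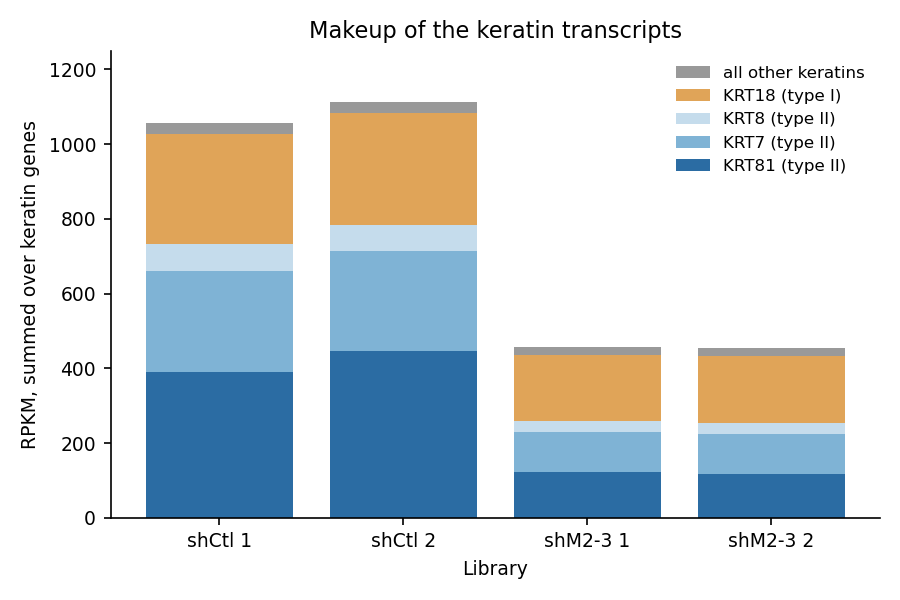
Summed keratin RPKM of each library as stacked bars from 0, with KRT81, KRT7 and KRT8 (type II), KRT18 (type I) and all other keratins together. The bars reach 1056 and 1114 in shCtl and 456 and 454 in shM2-3, and KRT81 is the tallest segment in shCtl whereas KRT18 is in shM2-3.

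Of the KRTAPs, KRTAP2-3 was the only one above an RPKM of 5, and it was almost absent after knockdown. It had 815 and 780 counts in the control libraries and 14 and 8 in shM2-3, an RPKM of 39.8 and 37.4 against 0.559 and 0.353. It fell by 6.31 on the log2 scale (SE 0.176, adjusted p = 1.41e-12), with 1.18% of the control RPKM left. KRTAP2-3 alone made up 90.2% and 86.9% of all KRTAP counts in shCtl.

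KRTAP2-4 had 35 and 58 counts in the control libraries and 1 and 0 in shM2-3. With a single read in one group, its ratio is imprecise: the counts scaled by library size were 103-fold lower, with an exact 95% interval from 18.0 to 4097 that covers counting error only (log2 fold change from edgeR -6.35, adjusted p = 1.92e-05). KRTAP4-9 had 28 and 33 counts in shCtl and 0 in both shM2-3 libraries. Set against a floor of 3 counts per library, KRTAP4-9 was at least 11.2-fold lower (adjusted p = 9.55e-05). The fitted log2 fold changes of such genes depend on the value added to a count of 0, so the bound and the interval are the better guide.

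The KRTAP2 genes are near copies of each other. KRTAP2-3 and KRTAP2-4 transcripts are 99.5% identical over 428 bases, and KRTAP2-3 and KRTAP2-1 98.9% over 446 bases, so the split of reads between them is uncertain. Added up, the KRTAP2 genes had a log2 fold change of -6.34 (SE 0.172) and the KRTAP4 genes of -3.85 (SE 0.636), both with an adjusted p under the limit. All KRTAPs together had a summed RPKM of only 0.858 and 0.692 in shM2-3. Both sums therefore passed the filter only through shCtl, and a fall was built into their selection.

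The KRTAP2-3 gene lies on chromosome 17 from 41059240 to 41060114, on the minus strand, KRTAP2-4 from 41065116 to 41065879 on the same strand, and KRTAP4-9 from 41105389 to 41106488 on the plus strand. Their start regions are printed because the KRTAP2 transcripts are so alike where they align. RefSeq windows from 250 bases before to 50 bases after each start (GRCh38.p14) were matched to 30 of the 49 members, in 33 windows. Each line below holds 86 bases of chromosome 17, 5′ to 3′ on the gene's strand, with 60 bases before the letters TATAAA, in capitals, and 20 bases after them. The first 3 genes fell and the last 3 had under 10 counts in each library.
KRTAP2-3 (41060117 to 41060202, minus strand): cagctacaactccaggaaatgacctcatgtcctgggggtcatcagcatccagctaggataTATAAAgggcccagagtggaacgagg
KRTAP2-4 (41065912 to 41065997, minus strand): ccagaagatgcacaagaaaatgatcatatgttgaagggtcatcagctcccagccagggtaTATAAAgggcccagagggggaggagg
KRTAP4-9 (41105240 to 41105325, plus strand): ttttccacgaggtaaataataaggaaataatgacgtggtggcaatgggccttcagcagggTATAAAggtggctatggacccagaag
KRTAP2-1 (41047334 to 41047419, minus strand): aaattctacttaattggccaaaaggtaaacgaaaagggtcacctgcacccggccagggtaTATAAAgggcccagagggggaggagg
KRTAP2-2 (41055278 to 41055363, minus strand): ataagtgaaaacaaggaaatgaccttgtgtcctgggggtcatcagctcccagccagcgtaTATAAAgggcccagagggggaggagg
KRTAP1-5 (41027213 to 41027298, minus strand): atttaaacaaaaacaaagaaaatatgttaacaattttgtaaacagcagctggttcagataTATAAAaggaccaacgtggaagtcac

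Aligned on TATAAA without gaps, the KRTAP2-3 stretch was identical to that of KRTAP2-2 at 76.7% of the 86 bases, to KRTAP2-4 at 61.6%, to KRTAP2-1 at 57.0%, to KRTAP1-5 at 46.5% and to KRTAP4-9 at 32.6%. TATAAA, or TTTATA on the other strand, was present in all 11 windows of KRTAPs on chromosome 17 and in 19 of the 33 member windows (57.6%), beside 11.5% of all 35116 windows. This motif was chosen after the sequences were seen. GGAATG, the core letters bound by TEAD factors, or its reverse complement was present in 3 of the 33 member windows (9.1%) and in 14.0% of all windows. Of the 7 tested members with a window, KRT8 was the only one that held it. A match describes letters in a window, and a window without one says nothing about more distant sites.

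The other KRTAPs of chromosome 17, 8 genes of the KRTAP1, KRTAP2 and KRTAP4 subfamilies, did not reach the filter. Together they had 18 and 27 counts in the control libraries and 2 and 5 in shM2-3, and 7 of the 8 had fewer counts in shM2-3. Several of the 7 rest on a few reads: KRTAP2-2 had 0 and 4 counts in shCtl and KRTAP4-6 had 1 and 0, each against 0 in both shM2-3 libraries. The share of all genes at this level with fewer counts in shM2-3 was not computed, so the count of 7 is a description only. KRTAP4-7 alone had over 10 counts in a library, with 3 and 11 in shCtl and 1 and 3 in shM2-3, and its groups touch at 3. KRTAP2-1, named after its values were seen, had 7 and 4 counts in shCtl and 0 in both shM2-3 libraries, which makes it at least 2.02-fold lower. The 5 KRTAP5 genes of chromosome 11 had 8 and 0 counts in the control libraries and 6 and 4 in shM2-3 together, a level at which no difference could be detected.

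**Figure D3:**
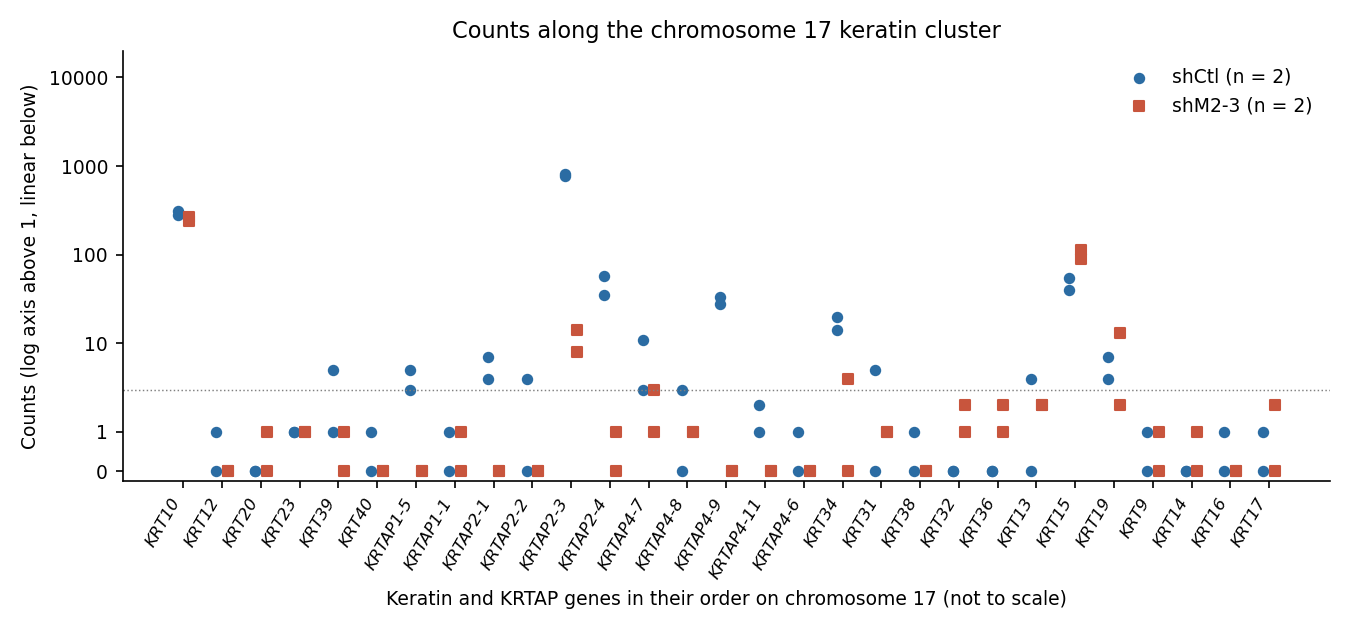
Counts of the 29 members on chromosome 17 in each of the 4 libraries, in gene order and not to scale, with circles for shCtl and squares for shM2-3. The axis is logarithmic above 1 and the dotted line marks the floor of 3 counts. KRTAP2-3, KRTAP2-4, KRTAP4-9 and KRT34 stand above their shM2-3 values, most genes lie near 0 in both groups, and KRT15 lies higher in shM2-3.

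Type I hair keratins were close to the limit of detection. KRT34 (chromosome 17, 41377669 to 41383816, minus strand) had 20 and 14 counts in the control libraries and 0 and 4 in shM2-3, an RPKM of at most 0.498. Its groups did not overlap. Scaled by library size it was 9.38-fold lower, with an exact 95% counting interval from 3.35 to 36.4, and it was tested only with other filters: without a filter its log2 fold change was -3.16 (SE 0.980, adjusted p = 0.00299), and with filterByExpr the adjusted p was 0.00624. In the fit without a filter, 2 of the 36 members under the filter, KRT34 and KRTAP2-1, were called lower, where 7.76% of all genes were. The other type I hair keratins had 12 and 1 counts in the control libraries and 4 and 5 in shM2-3 in sum.

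KRT3 and KRT79 rose from near 0. KRT3, a type II keratin known from the corneal epithelium (chromosome 12, 52789685 to 52796117, minus strand), had 3 and 0 counts in the control libraries and 100 and 85 in shM2-3. Scaled by library size it was 55.9-fold higher, with an exact 95% counting interval from 18.8 to 273 (adjusted p = 1.84e-06). The fitted log2 fold change of 5.69 (SE 0.617) rests on the control libraries: it was 9.49 without shCtl replicate 1, which holds all 3 reads, and 4.73 without shCtl replicate 2. Even so, its RPKM in shM2-3 was only 1.51 and 1.41.

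KRT79, a type II keratin of the hair follicle opening and sebaceous duct (chromosome 12, 52821408 to 52834311, minus strand), had an RPKM of 0.603 and 0.613 in shCtl and of 3.14 and 3.37 in shM2-3. The replicates of each group lay close together. KRT79 rose by 2.48 on the log2 scale (SE 0.233, adjusted p = 4.46e-07), over 30 to 31 counts in shCtl and 185 to 191 in shM2-3. In contrast to KRT81 and KRT7, neither gene came near the level of the abundant keratins.

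KRT15, a type I keratin of basal and follicle stem cells (chromosome 17, 41513745 to 41518890, minus strand), had an RPKM of 0.997 and 1.32 in shCtl and of 2.32 and 2.03 in shM2-3. Its log2 fold change was 0.97 (SE 0.275, adjusted p = 0.00618), under the fold limit. It passed the limit without shCtl replicate 2 (1.19) and without shM2-3 replicate 2 (1.06).

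KRT10, the type I keratin of suprabasal epidermis (chromosome 17, 40818117 to 40822614, minus strand), had an RPKM of 5.56 and 6.13 in shCtl and of 3.86 and 4.75 in shM2-3. Its log2 fold change was -0.38 (SE 0.139, adjusted p = 0.0258). This difference is the least certain of the 13: the adjusted p was 0.0810 in DESeq2, 0.113 without shCtl replicate 2 and 0.214 without shM2-3 replicate 1, within a range from 0.00589 to 0.214 over the 12 alternative fits. Its exons share 61 bases with the antisense gene KRT10-AS1.

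**Figure D4:**
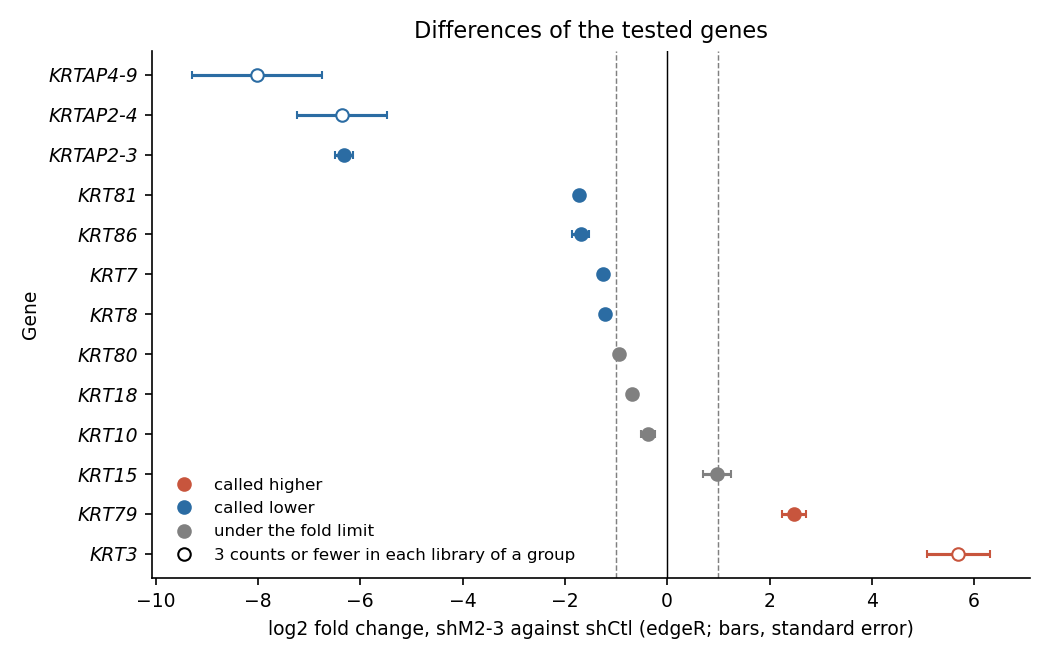
Log2 fold change of shM2-3 against shCtl for the 13 tested members with its standard error from edgeR, where blue marks genes called lower, red genes called higher and grey genes under the fold limit (dashed lines). Open symbols mark KRTAP4-9, KRTAP2-4 and KRT3, which have 3 counts or fewer in each library of a group and whose fitted values are imprecise. The values run from -8.01 for KRTAP4-9 to 5.69 for KRT3, and KRT80, KRT18, KRT10 and KRT15 lie within the dashed lines.

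The main keratins of basal and activated stratified epithelia, KRT5, KRT14, KRT6A, KRT16 and KRT17, had at most 5 counts in a library, unlike KRT10 and KRT15. The 15 epithelial keratins under the filter, which are low by that selection, had 9 and 22 counts in the control libraries and 13 and 22 in shM2-3 in sum. KRT19, a type I keratin of simple and ductal epithelia, was named for reaching 10 counts in a library. It had 4 and 7 counts in the control libraries and 2 and 13 in shM2-3, and its groups overlap. In all, 33 members had under 10 counts in each library, with a maximum of 7. The tables also hold 3 keratin pseudogenes, with 95 and 99 counts in the control libraries and 8 and 16 in shM2-3 in sum. Nearly all of these counts belong to a single pseudogene, KRT87P, with 94 and 99 in the control libraries and 8 and 15 in shM2-3.

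Epithelial junction and surface genes were low in both groups beside the simple keratins. Of the 12 in the tables, 11 had an RPKM of 1 or less in every library. EPCAM (0.0276 to 0.150) and CDH1 (0 to 0.0344), which encode epithelial adhesion proteins, were near 0, whereas the tight junction genes CLDN4 (0.438 to 0.695), CLDN1 (0.0710 to 0.484) and OCLN (0.224 to 0.440) were detected at low levels. CLDN1 was called lower when tested under the filterByExpr filter (log2 fold change -1.49) or without a filter. MUC1, an epithelial surface mucin, passed the filter only through shM2-3, so that a rise was built into its being tested, and rose from an RPKM of 0.859 and 0.793 to 1.46 and 1.81. The log2 fold change of MUC1, 1.05 (SE 0.204), was under the limit without shCtl replicate 2 (0.98) or shM2-3 replicate 2 (0.88). It was also under the limit in limma on log2(RPKM + 0.1) (0.90) and on log2(RPKM + 1) (0.52). Of 6 keratinocyte markers, KRT10 and TP63, an epidermal transcription factor, passed the filter, and TP63 had a log2 fold change of -0.73 (SE 0.0782) with an RPKM of 5.95 and 5.43 against 3.34 and 3.21.

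Most markers of other cell types were low. Of 6 fibroblast markers, 5 had an RPKM of at most 0.413, and the sixth, the receptor gene PDGFRA, rose from 7.58 and 7.51 to 25.2 and 24.8. The fibroblast list summed to an RPKM of 8.01 and 7.95 in shCtl and of 25.7 and 25.1 in shM2-3, nearly all of it PDGFRA. Among 7 leukocyte markers PTPRC, CD3E and CD79A had at most 3 counts in a library, and the list summed to an RPKM of 58.5 and 57.5 in shCtl and of 41.4 and 40.2 in shM2-3. Most of that sum was CD68, a lysosomal gene, which had an RPKM of 57.3 and 56.9 against 37.8 and 39.0, under the fold limit (log2 fold change -0.51). CD14, a monocyte gene under the filter, had 3 and 4 counts in the control libraries and 42 and 37 in shM2-3, and was called higher without the filter (log2 fold change 3.28). CD74 had 8 counts in each control library and 25 and 17 in shM2-3. The shM2-3 replicates differed in LYZ, the lysozyme gene, with 100 and 5 counts, and its log2 fold change was 1.83 without replicate 2 and -2.30 without replicate 1. In bulk RNA, fewer cells with a transcript and less of it per cell cannot be told apart.

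Genes that act with keratins were compared through lists, and the filter bears on these counts as it does on those of members. Of 15 other intermediate filament genes, 9 were tested, 1 fell and 3 rose, with a median log2 fold change of 0.34, where 8.93% of all genes tested were called lower and 9.24% higher. INA and NES passed the filter only through shM2-3 and SYNC only through shCtl, so that their direction was built into their selection. NES (nestin) rose from an RPKM of 0.314 and 0.430 to 2.48 and 2.38, SYNM (synemin) from 1.71 and 1.98 to 5.48 and 4.60, and INA, a neuronal filament gene, from 0.249 and 0.542 to 1.03 and 1.01. SYNC (syncoilin) fell from 1.54 and 1.99 to 0.493 and 0.527. Vimentin (VIM), the filament gene of mesenchymal cells, exceeded every keratin, with an RPKM of 2873 and 2969 in shCtl and of 2037 and 2088 in shM2-3. VIM had a log2 fold change of -0.44 (SE 0.0302), under the fold limit.

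Desmosome genes, whose products anchor keratin filaments at cell contacts, were expressed in part. Of 20 desmosome and keratin linker genes 7 were tested. PERP had an RPKM of 18.4 to 21.8 over the 4 libraries, PKP4 of 8.51 to 10.4, PKP3 of 2.24 to 4.91 and DSG2 of 2.30 to 3.86, and none of these reached the fold limit over all 4 libraries. JUP and PKP1, in contrast, had at most 6 counts in a library. DSP, which encodes desmoplakin, was called lower when tested without the filter (log2 fold change -2.04) and had an RPKM of 0.396 and 0.563 in shCtl and of 0.108 and 0.119 in shM2-3. PLEC (plectin), a linker of intermediate filaments, rose from 19.3 and 20.5 to 75.8 and 75.2 (log2 fold change 1.99, SE 0.0396). ITGA6, an integrin subunit found in hemidesmosomes, fell from 43.9 and 42.7 to 14.0 and 13.5 (log2 fold change -1.59, SE 0.0441). ITGB4 and COL17A1 of the same list were under the filter. ITGB4 had an RPKM of 0.395 and 0.243 in shCtl and of 0.461 and 0.427 in shM2-3. COL17A1 had 0.647 and 0.636 against 0.653 and 0.536. The median over the 7 was -0.52, with 1 gene called in each direction, where 8.93% of all genes tested were called lower and 9.24% higher. Without shM2-3 replicate 1, 3 genes were called lower, since DST (-1.03) and PKP3 then reached the fold limit.

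Of 17 cornified envelope and late epidermal genes, 2 were tested and 1 fell, where 8.93% of all genes tested were called lower. The gene that fell, SBSN (suprabasin), went from an RPKM of 2.30 and 2.66 to 0.143 and 0.178. SBSN passed the filter only through shCtl. The other, FLG (filaggrin), passed it only through shM2-3 and had a log2 fold change of 0.96 (SE 0.103) and reached the fold limit without shCtl replicate 1 (1.03) or shM2-3 replicate 2 (1.01). With no filter, TGM5 and CDSN of this list were called higher, and FLG2 as well with filterByExpr. Of 15 keratin binding and turnover genes, 11 were tested, with a median log2 fold change of -0.18. Among the 11, 1 fell and 1 rose, close to the 8.93% of all genes tested called lower and the 9.24% called higher. TCHP (trichoplein), which binds keratin filaments, fell from 6.33 and 5.37 to 2.63 and 2.69 (log2 fold change -1.07, SE 0.121). The TCHP value was under the fold limit without shCtl replicate 1 (-0.94) and in limma on log2(RPKM + 1) (-0.90). SQSTM1, a component of keratin aggregates and an autophagy receptor, rose from 62.8 and 65.3 to 130 and 134.

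Of 19 epithelial and hair transcription factors, 8 were tested and 2 rose, where 9.24% of all genes tested were called higher. The median log2 fold change of the 8 was 0.29. TFAP2A, a regulator of keratin genes, rose from an RPKM of 8.61 and 7.95 to 24.1 and 24.8 (log2 fold change 1.63, SE 0.0575), and KLF5, which passed the filter only through shM2-3, from 0.917 and 0.938 to 2.32 and 2.36. HOXC13, a regulator of hair keratin genes, had an RPKM of 2.25 and 1.51 in shCtl and of 2.09 and 1.98 in shM2-3, and the groups overlap. LEF1, another factor of the hair follicle, had a log2 fold change of -0.41 (SE 0.196, adjusted p = 0.0738).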

How the data were processed

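RNA of 4 ES-2 libraries (2 shCtl, 2 shM2-3) was analysed, with groups taken from the labels. The authors aligned the reads to hg38 with HISAT2 2.0.4, removed ambiguous and low-quality alignments, and quantified RefSeq genes in Partek 7.18. The deposited estimated counts are not normalized. The deposited RPKM differ from the counts only by a gene length and a library factor. Rounded counts were tested with edgeR 4.0.16 under R 4.3.3 (quasi-likelihood test with TMM scaling, Benjamini-Hochberg adjustment over 12157 genes), after the test was checked on simulated data. The SE is the log2 fold change divided by the square root of F. The biological coefficient of variation was 0.0485, and SDs rest on 2 values. Alternatives used DESeq2 1.42.0, limma 3.58.1 on log2 RPKM, other filters, limits and scalings, subfamily sums, and each library left out. Gene positions and promoter windows come from RefSeq, strands and exon overlaps from GENCODE release 44, and transcript identities from BLAST 2.17.0.

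Members and gene lists were chosen with earlier results of these data known. Every tested member, members with at least 10 counts in a library and called genes of each list were named. Other genes, KRT7-AS and low KRTAPs among them, were named after values were seen.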

Additional observations from a re-analysis of the deposited data

How the results depend on the processing

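The 7 lower and 2 higher calls among members were within 1.5 times under every alternative run. The lower count was 7 with library totals, DESeq2, limma on log2(RPKM + 0.1) or log2(RPKM + 1) and the edgeR exact test. It was 8 with filterByExpr, 9 without a filter, 9 at a fold of 1.5, 10 without a fold limit and 5 with subfamilies summed. These counts rest on different sets of genes, and the 5 counts merged features. Without a filter, 7.76% of all genes were called lower. Without a fold limit, 72.7% of all genes tested were called in either direction, as was every tested member. Shares of all genes called lower under the other alternatives were not computed. Leaving out each library gave 7 lower and between 2 and 3 higher. The replicate block gave 7 lower and 2 higher members and 2202 called genes in place of 2209; the replicate numbers pair nothing in the labels, and the difference between replicates 1 and 2 correlated at -0.0287 between the groups. Of 168 refits of members and MAML2, 166 kept direction and call, 2 (KRT15) passed the fold limit and none reversed. Leaving out shM2-3 replicate 1, which holds its only shM2-3 read, gave -8.56 for KRTAP2-4, and leaving out replicate 2 gave -5.57. With log2(RPKM + 1), KRTAP2-4 was -1.78, KRTAP4-9 -1.12 and KRT3 1.26, since the added value exceeds the lower levels. Of 216 list counts, 21 moved by over 1.5 times. Depth limits the 33 members under 10 counts.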
